A study of Mus musculus with 43 samples.

Results

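The genes described here are 10 mouse genes of dietary fat handling in absorptive intestinal cells: Fabp1, Fabp2, Apoa1, Apoa4, Apoc2, Apoc3, Apob, Mttp, Dgat1 and Dgat2. They were taken by symbol from a list of named genes, with no threshold on a measured value, and the list was drawn up with earlier results of these data known. All 10 had a row among the 23951 genes of the bulk RNA tables and among the 54307 rows of the single-cell matrices, and all 10 were above the expression minimum in every comparison. The bulk data were 18 RNA libraries of wild-type C57BL/6 mouse intestinal organoids, which are epithelial cultures grown in Matrigel, in 6 groups of 3. Organoids were either left without irradiation or given 4 Gy on day 4, received vehicle or 2 ng/mL of the cytokine TGFB1 on day 6 for 24 h, and were collected on day 7 (D7). A further pair of groups, irradiated on day 4 and given vehicle or TGFB1 in the same way, was collected on day 11 (D11). No group of non-irradiated D11 organoids was analysed here. Single-cell data were 4 libraries of D8 organoids irradiated with 4 Gy on day 4, with vehicle (0 h) or 1 ng/mL TGFB1 for 6, 15 or 24 h. A further 3 libraries came from crypt cells of the proximal small intestine of Mki67tm1.1Cle/J mice, in which proliferating cells carry a Ki67-RFP fusion. RFP-positive, DAPI-negative cells were sorted from 1 non-irradiated littermate control and in 2 samples taken 56 h after 12 Gy to the whole body. No label says that replicates came from separate cultures or mice, so p-values measure only the spread between these samples, which may be technical.

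After a meal, fatty acids that enter the enterocyte are carried in the cytosol by fatty acid binding proteins and are rebuilt into triglyceride at the endoplasmic reticulum. The triglyceride is loaded by the microsomal transfer protein onto apolipoprotein B, and the resulting chylomicron leaves the cell with smaller, exchangeable apolipoproteins on its surface. The genes are strongly expressed in enterocytes of the proximal small intestine, and several of them are also major products of the liver. Fabp1 (chromosome 6) and Fabp2 (chromosome 3) encode the liver-type and intestinal-type fatty acid binding proteins. Apoa1, Apoc3 and Apoa4 lie next to each other, in that order, on chromosome 9, and Apoc2 lies on chromosome 7 between Clptm1 and Apoc4. Apob (chromosome 12) encodes the structural protein of the particle and Mttp (chromosome 3) the large subunit of the transfer protein. Dgat1 (chromosome 15) and Dgat2 (chromosome 7, beside Mogat2) encode unrelated enzymes for the last step of triglyceride synthesis.

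RefSeq promoter sequences of build GRCm38.p6 were held for 7 of the 10 genes, and none was held for Apoc3, Dgat1 or Dgat2. The 250 bases before the start are shown for Fabp1 and Fabp2, which fell with TGFB1 in non-irradiated organoids. Those of Apoa1 and Apoa4, which lie on either side of Apoc3 and rose with TGFB1 in D7 irradiated organoids, are also shown. Capitals mark matches, on either strand, to the 5 motifs that were searched. The core promoter element was spelled TATAAA. For the nuclear receptor HNF4 the letters searched were CAAAGTCCA, and for one side of the palindrome bound by HNF1 they were GTTAAT. For the intestinal homeobox factors CDX the motif was TTTATNG, where N is any base, and for the GATA factors it was AGATAA. The stretches lie at chr6:71199629-71199878 on the plus strand for Fabp1, chr3:122894822-122895071 on the plus strand for Fabp2, chr9:46228380-46228629 on the plus strand for Apoa1 and chr9:46240594-46240843 on the plus strand for Apoa4.
Fabp1: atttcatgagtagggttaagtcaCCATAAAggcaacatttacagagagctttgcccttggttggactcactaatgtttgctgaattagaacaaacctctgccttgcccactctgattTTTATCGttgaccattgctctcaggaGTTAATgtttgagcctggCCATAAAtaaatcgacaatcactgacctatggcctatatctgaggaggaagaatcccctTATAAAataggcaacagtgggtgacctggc
Fabp2: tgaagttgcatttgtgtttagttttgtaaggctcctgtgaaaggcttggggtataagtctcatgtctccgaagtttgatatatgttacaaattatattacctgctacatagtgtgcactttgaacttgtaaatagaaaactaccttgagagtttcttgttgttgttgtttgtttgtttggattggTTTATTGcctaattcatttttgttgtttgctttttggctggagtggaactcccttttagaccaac
Apoa1: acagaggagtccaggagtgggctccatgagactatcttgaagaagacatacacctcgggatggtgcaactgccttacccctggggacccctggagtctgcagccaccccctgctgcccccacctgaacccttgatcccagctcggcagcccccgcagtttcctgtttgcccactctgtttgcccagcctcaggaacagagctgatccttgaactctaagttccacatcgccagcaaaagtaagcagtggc
Apoa4: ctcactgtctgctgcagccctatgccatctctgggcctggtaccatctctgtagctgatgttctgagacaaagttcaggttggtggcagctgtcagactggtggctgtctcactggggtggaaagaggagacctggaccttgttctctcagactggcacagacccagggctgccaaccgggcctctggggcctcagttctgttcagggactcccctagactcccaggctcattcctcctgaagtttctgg
In Fabp1 the TATAAA lies at bases -30 to -25 before the start, the GTTAAT at -107 to -102, and the CDX-type matches at -227 to -221, -133 to -127 and -89 to -83. In Fabp2 the single match, of CDX type, lies at -65 to -59. Apoa1, Apoa4 and Mttp held none of the 5 motifs in the 300 bases searched, which run from 250 before to 50 after the start. Apoc2 held a GTTAAT at -89 to -84 and a CDX-type match at -174 to -168, and Apob held a TATAAA at -60 to -55 that overlaps a CDX-type match at -61 to -55. The CDX-type motif was thus present in 4 of the 7 windows and in 10.9% of all 32851 promoter windows of the table. TATAAA was present in 2 of 7 against 13.6% of all, GTTAAT in 2 of 7 against 7.1%, and CAAAGTCCA in 0 of 7 against 0.475%, and the GATA-type motif in 0 of 7 against 11.2%. A match describes letters and not binding, and the search says nothing of the factors themselves.

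The bulk values are FPKM (fragments scaled to transcript length and to all mapped fragments), which allow levels to be compared between genes. The 3 conditions were deposited in separate tables of 6 libraries, and the tables give no fragment numbers, so the depth behind each value is unknown. Markers of absorptive cells without the lipid genes (19 genes such as Alpi, Sis and Vil1) summed to 1285 to 6587 FPKM over the 18 libraries, so the markers of the labelled tissue were present in each. Mesenchymal markers (6 genes) summed to 2.78 to 9.97 FPKM, with 3 to 5 of the 6 under 0.1 FPKM on average in each group. Liver markers (4 genes) summed to 5.67 to 40.5 FPKM with 2 of the 4 under 0.1 FPKM. Immune markers (7 genes, 3 to 5 of them under 0.1 FPKM) summed to 2.07 to 90.3 FPKM, with the highest sums, 80.3 to 90.3, in the non-irradiated TGFB1 libraries against 24.9 to 28.5 in their vehicle libraries. In bulk RNA, fewer cells of a type and less RNA per cell cannot be told apart.

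**Figure D1:**
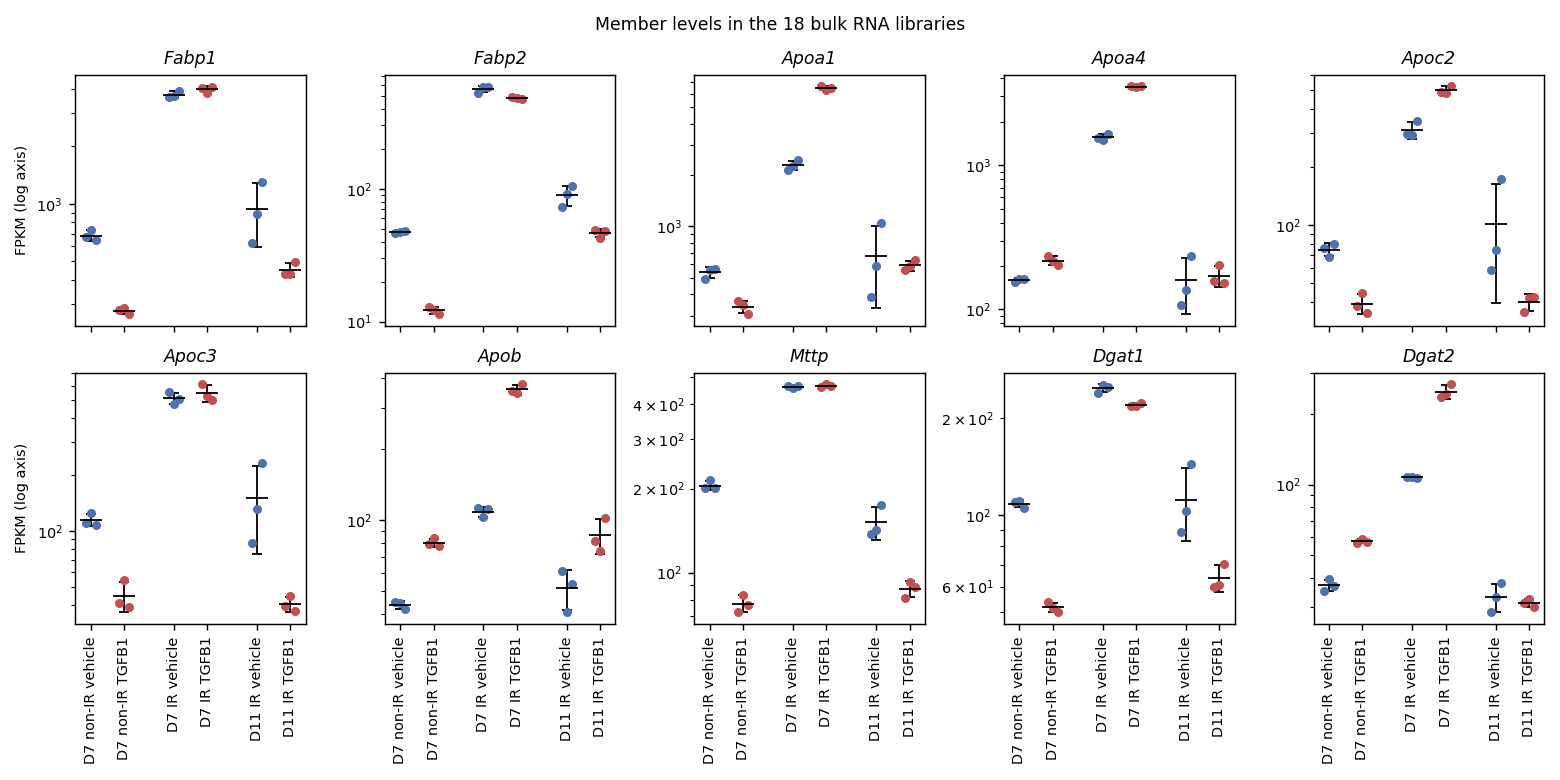
FPKM of each gene (log axis, 1 panel per gene) in the 6 groups of bulk organoid libraries, with 1 point per library and 3 libraries per group. In every panel the D7 irradiated libraries stand above the non-irradiated and the D11 libraries of the same treatment, and for all 10 genes the D11 vehicle libraries have the largest spread relative to their mean.

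In D7 organoids without irradiation, the genes split into those that fell with TGFB1 and those that rose. Both fatty acid binding proteins, Mttp, Dgat1, Apoa1, Apoc2 and Apoc3 fell, and Apob, Apoa4 and Dgat2 rose. All 10 passed the test (3 higher, 7 lower), and in none of them did the 3 vehicle and 3 TGFB1 libraries overlap. The background was high: of the 11330 genes tested, 33.3% were called higher and 34.9% lower, and 72.1% had libraries without overlap. Of the members, 5 were called lower with at least a 2-fold difference (Fabp1, Fabp2, Apoc3, Mttp and Dgat1), where 2.92% of all genes were. The median log2 difference of the 10 was -0.99, against -0.02 for all genes.

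The largest fall was that of Fabp2, the intestinal-type binding protein. Its FPKM were 46.7, 47.7 and 48.0 with vehicle and 12.9, 12.2 and 11.4 with TGFB1, so every treated library lay far under every vehicle library. The difference of log2(FPKM + 1) was -1.88 ± 0.0471 (SE, n = 3 against 3, limma adjusted p = 1.09e-10), a 3.90-fold lower mean. Fabp1, the liver-type protein and the most abundant of the 10 with vehicle, had 675, 730.3 and 644 FPKM with vehicle and 279.7, 285 and 265 with TGFB1. Its difference was -1.30 ± 0.0462 (adjusted p = 1.91e-09), 2.47-fold lower.

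Mttp, the transfer protein that lipidates apolipoprotein B, had 200.3, 214 and 200.1 FPKM with vehicle and 72.4, 83.1 and 76.9 with TGFB1. That is a 2.64-fold lower mean (log2 difference -1.39 ± 0.0497, adjusted p = 1.96e-09). Its acceptor moved the other way. Apob had 44.9, 44.5 and 42.0 FPKM with vehicle and 79.5, 84.0 and 77.7 with TGFB1, a 1.84-fold higher mean (0.86 ± 0.0411, adjusted p = 1.43e-08). With vehicle the Mttp level was far above that of Apob in every library, and with TGFB1 the ranges of the 2 genes overlapped.

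The triglyceride synthases also parted. Dgat1 had 110.2, 110.5 and 106 FPKM with vehicle and 53.6, 51.4 and 50.1 with TGFB1, 2.10-fold lower (-1.06 ± 0.0369, adjusted p = 1.28e-09). Dgat2 had 35.2, 39.4 and 36.9 with vehicle and 56.5, 58.7 and 57.0 with TGFB1, 1.54-fold higher (0.61 ± 0.0440, adjusted p = 3.78e-07). Dgat1 was thus the more abundant of the pair in each vehicle library and the less abundant in each TGFB1 library.

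Of the exchangeable apolipoproteins, Apoc3, an inhibitor of triglyceride clearance from the blood, had 111, 124 and 108 FPKM with vehicle and 41.1, 54.3 and 39.2 with TGFB1, 2.54-fold lower (-1.34 ± 0.135, adjusted p = 0.000279). Apoc2, the activator of lipoprotein lipase, had 75.9, 68.7 and 80.2 against 38.4, 44.5 and 35.2, 1.90-fold lower (-0.91 ± 0.0865, adjusted p = 2.10e-05). Apoa1, the main protein of high-density lipoprotein, had 492, 556 and 567 against 363, 345 and 306, 1.59-fold lower (-0.67 ± 0.0732, adjusted p = 5.70e-05). Apoa4, a lipid-induced protein of the chylomicron surface, was the one of this group that rose, while Apoc3 beside it and Apoa1 beyond Apoc3 fell. It had 156, 163 and 162 FPKM with vehicle and 233, 218 and 203 with TGFB1, 1.36-fold higher (0.44 ± 0.0465, adjusted p = 1.01e-05), and in a fit of all 18 libraries its adjusted p was 0.0633. Apoc2 is overlapped by the gene Gm44805 and Fabp2 by 4933405D12Rik in RefSeq, and the sources do not say how the reads of overlapping genes were assigned, so the values of Apoc2 and Fabp2 can hold reads of those partners.

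Other markers moved in the same libraries. The absorptive markers without lipid genes summed to 2605 to 2705 FPKM with vehicle and 1642 to 1735 with TGFB1, and 14 of the 18 tested fell while 3 rose. The villus tip markers (Ada, Nt5e, Slc28a2, Fos, Klf4 and Egfr, of which Klf4 is also among the regulators listed later) summed to 97.8 to 104 and 222 to 245, and 5 of 6 rose. Regenerative markers (9 genes in the tables, among them Clu and Anxa1) summed to 544 to 580 with vehicle and 3310 to 3441 with TGFB1, and 9 of 9 rose. Of the other lists, goblet markers fell in 8 of 8 (6285 to 6648 against 4715 to 5112 FPKM), proliferation markers fell in 9 of 12 and rose in 1 (650.2 to 658 against 494 to 518), and tuft markers rose in 4 of 5. Their part in the differences of the lipid genes was not tested.

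In D7 organoids irradiated on day 4, the same treatment left a different picture. Apoa1, Apoa4, Apob and Dgat2 rose more than 2-fold and Apoc2 rose 1.61-fold. Fabp2 fell 1.17-fold and Dgat1 1.13-fold, and Fabp1, Apoc3 and Mttp did not pass the test. That makes 5 higher and 2 lower, where 35.8% of the 11258 genes tested were called higher and 39.7% lower. The 4 that rose at least 2-fold compare with 7.79% of all genes. The median log2 difference of the 10 was 0.39, against -0.03 for all genes.

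Apob showed the largest rise. It had 113, 103 and 111 FPKM with vehicle and 353, 346 and 379 with TGFB1, a 3.30-fold higher mean (1.71 ± 0.0475, adjusted p = 4.89e-10). Mttp, in contrast, had 467, 457 and 465 with vehicle and 460.4, 473 and 467 with TGFB1. The 2 groups of Mttp libraries overlapped, and the difference was 0.01 ± 0.0328 (adjusted p = 0.750). Mttp was above Apob in FPKM in all 6 libraries, and the gap was narrower with TGFB1.

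Apoa1 had 2158, 2253 and 2438 FPKM with vehicle and 6653, 6277 and 6516 with TGFB1, 2.84-fold higher (1.51 ± 0.0485, adjusted p = 1.19e-09). Apoa4 had 1542, 1493 and 1646 with vehicle and 3523, 3464 and 3539.6 with TGFB1, 2.25-fold higher (1.17 ± 0.0419, adjusted p = 2.37e-09). Both genes were far higher in each treated library than in each vehicle library. Apoc3, which lies between them, did not follow: it had 551, 479.7 and 511 with vehicle and 611, 527 and 503 with TGFB1, with overlapping groups (0.09 ± 0.0752, adjusted p = 0.315). Apoc2 had 295, 292 and 346 against 489, 486 and 526, without overlap (0.69 ± 0.0645, adjusted p = 5.39e-06).

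Dgat2 had 107, 108 and 107 FPKM with vehicle and 236, 244 and 269 with TGFB1, 2.32-fold higher (1.21 ± 0.0472, adjusted p = 4.43e-09). Dgat1 had 239.8, 254 and 251 against 218, 219 and 224, 1.13-fold lower (-0.17 ± 0.0360, adjusted p = 0.00138, and 0.190 in the fit of all 18 libraries). As without irradiation, Dgat1 was the more abundant synthase with vehicle and Dgat2 the more abundant with TGFB1. Fabp2 had 529, 584 and 579 against 487, 482 and 473, 1.17-fold lower (-0.23 ± 0.0431, adjusted p = 0.000637). Fabp1 had 3614, 3677 and 3903 against 4059, 3815 and 4086, with overlapping groups. Its difference was 0.10 ± 0.0436 (adjusted p = 0.0687), its adjusted p was 0.0148 with median-ratio scaling, and after quantile normalization the difference turned to -0.51 (adjusted p = 8.97e-07), so its direction depends on the scaling.

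In these libraries the absorptive markers without lipid genes summed to 6282 to 6489 FPKM with vehicle and 6417 to 6587 with TGFB1, with 7 of 18 higher and 11 lower. The villus tip markers rose in 6 of 6 (81.1 to 87.2 against 452 to 492), and the proliferation markers fell in 12 of 12 (572 to 595 against 197 to 229). The regenerative markers rose in 9 of 9 (329 to 358 against 4677 to 5108). Enteroendocrine markers rose in 9 of 10 (778 to 836 against 1980.4 to 2178), Paneth markers rose in 8 of 8 (4786 to 5507 against 8454 to 8582), goblet markers fell in 7 of 8, stem markers fell in 5 of 8 and rose in 1, and tuft markers rose in 4 of 5 and fell in 1. Their part in the differences of the lipid genes was not tested. The lipid genes as a group took 1.72 to 1.83% of all FPKM with vehicle and 2.69 to 2.80% with TGFB1, against 0.373 to 0.394% and 0.204 to 0.223% in the non-irradiated libraries.

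At D11 the pattern was again mostly downward. Fabp1, Fabp2, Apoc3, Mttp and Dgat1 fell, Apob rose, and Apoa1, Apoa4, Apoc2 and Dgat2 did not pass the test. That makes 1 higher and 5 lower, where 32.3% of the 11479 genes tested were called higher and 31.6% lower, and 1 (Apoc3) was called lower by at least 2-fold on the log2(FPKM + 1) scale, as were 8.04% of all genes. The vehicle libraries differed widely among themselves, with replicate 3 the highest of the 3 for 9 genes of the 10, all but Apob.

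Apoc3 had 85.9, 131 and 231 FPKM with vehicle and 39.3, 44.6 and 37.3 with TGFB1 (-1.75 ± 0.373, adjusted p = 0.0105). Fabp1 had 622, 885 and 1307 against 427, 429.9 and 494 (-0.99 ± 0.237, adjusted p = 0.00562). Fabp2 had 73.0, 91.8 and 104 against 48.8, 42.5 and 48.0 (-0.92 ± 0.122, adjusted p = 0.000119). All treated libraries of these 3 genes were under all vehicle libraries, in a comparison in which 70% of all genes had libraries without overlap, and the spread among vehicle libraries was larger than at D7. Mttp had 138, 142 and 175 against 81.0, 92.8 and 89.0 (-0.78 ± 0.107, adjusted p = 0.000151), and Dgat1 had 88.5, 103 and 144 against 59.7, 60.9 and 70.7 (-0.77 ± 0.164, adjusted p = 0.00308).

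Apob was the gene that rose at D11: it had 60.7, 40.8 and 53.5 FPKM with vehicle and 82.0, 74.4 and 103 with TGFB1, 1.67-fold higher (0.74 ± 0.161, adjusted p = 0.00373). Apob was the only one of the 10 called higher with TGFB1 in all 3 comparisons, and Fabp2 and Dgat1 were the ones called lower in all 3. Apoc2 had 58.4, 74.1 and 173 against 35.4, 41.8 and 42.6, without overlap, at a difference of -1.17 ± 0.447 (adjusted p = 0.0761). Its adjusted p was 0.000971 without vehicle replicate 3 (difference -0.71) and 0.0403 without vehicle replicate 1 (difference -1.49). The other 3 genes had overlapping groups. Apoa1 had 385, 588 and 1045 against 554, 586 and 633 (-0.07 ± 0.332, adjusted p = 0.870), and its difference was 0.21 with quantile normalization and 0.31 without vehicle replicate 3.

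Apoa4 had 107, 136 and 236 FPKM at D11 with vehicle and 157, 203 and 153 with TGFB1 (0.16 ± 0.290, adjusted p = 0.646). Without vehicle replicate 3 it was called higher (0.48, adjusted p = 0.0224), and without vehicle replicate 1 its difference was -0.08. Dgat2 had 28.5, 33.0 and 37.8 against 31.2, 32.5 and 30.0 (-0.07 ± 0.0989, adjusted p = 0.531), and 0.02 without vehicle replicate 3. The absorptive markers without lipid genes summed to 2870 to 4180.3 FPKM with vehicle and 1285 to 1526 with TGFB1, with 13 of 18 lower and 1 higher, and the regenerative markers to 253 to 312 and 4678 to 5580.4. Enteroendocrine markers fell in 8 of 10 (1230.4 to 1441 against 613 to 728), Paneth markers rose in 6 of 8 (3169.8 to 3927 against 4627 to 5942), and goblet markers fell in 4 of 8 and rose in 1. Their part in the differences of the lipid genes was not tested.

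**Figure D2:**
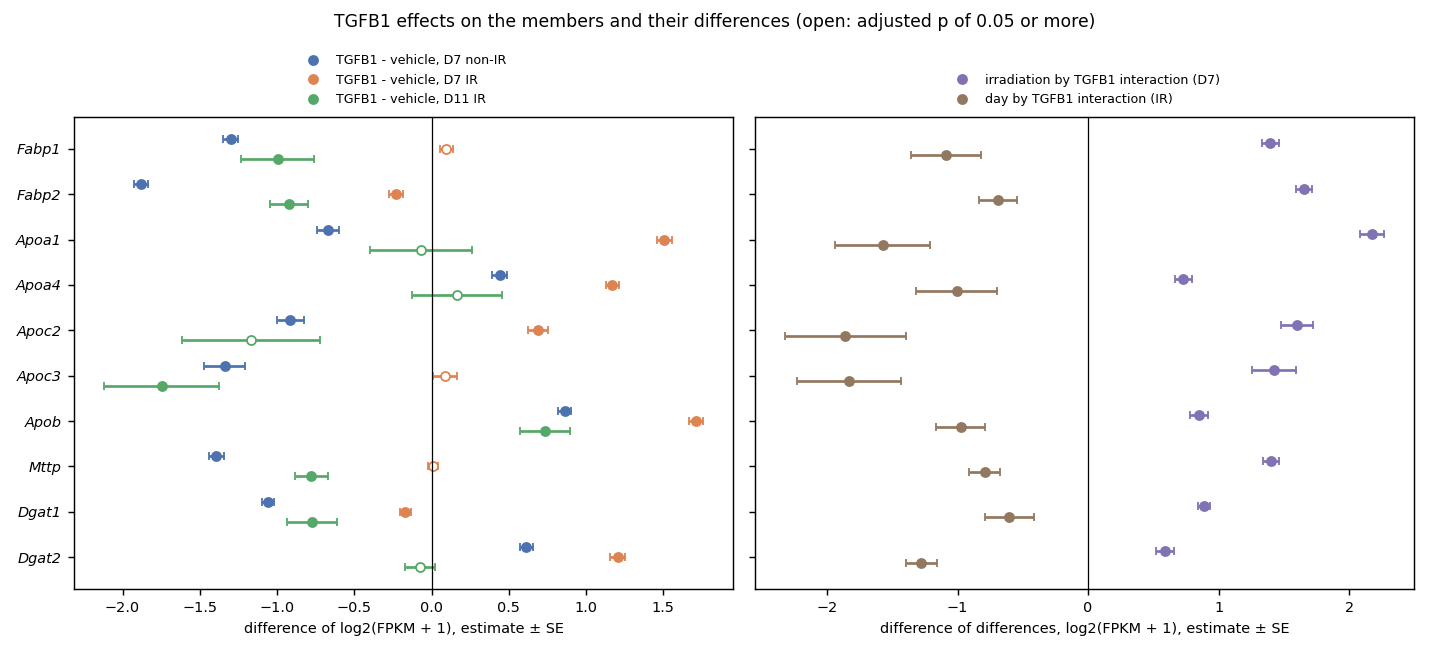
Left, difference of log2(FPKM + 1) between TGFB1 and vehicle (estimate ± SE, 3 against 3 libraries) for each gene in D7 non-irradiated, D7 irradiated and D11 irradiated organoids; right, the differences between those effects. Open points have an adjusted p of 0.05 or more, and for every gene the D7 irradiated effect lies to the right of both others.

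The difference between the TGFB1 effects was tested itself, as an interaction over 12 libraries. For all 10 genes the effect was more positive in irradiated than in non-irradiated D7 organoids, by 0.59 (Dgat2) to 2.18 (Apoa1) on the log2(FPKM + 1) scale, and all 10 passed the test, where 25.3% of the 11411 genes were called in that direction. Apoa1 and Apoc2 fell without irradiation and rose with it, and their interactions were 2.18 ± 0.0937 (adjusted p = 7.85e-10) and 1.60 ± 0.123 (adjusted p = 4.15e-07). Fabp2, which fell in both, had an interaction of 1.65 ± 0.0629 (adjusted p = 1.44e-10). Apob and Dgat2, which rose in both, had smaller ones of 0.85 ± 0.0652 (adjusted p = 1.09e-07) and 0.59 ± 0.0670 (adjusted p = 4.86e-06). Between D7 and D11 irradiated organoids, the effect was more negative at D11 for all 10, by 0.60 (Dgat1) to 1.86 (Apoc2), and all 10 passed, where 33% of the 11456 genes were called in that direction. Both interactions share the 6 D7 irradiated libraries, so they are no independent evidence of each other. Only a factor common to all libraries of a table cancels in them. Each condition had a table of its own, so irradiation or day cannot be told apart from another difference between tables in the TGFB1 response. After quantile normalization the day interaction of Fabp1 was -0.26 (adjusted p = 0.415) and that of Apoa4 -0.42 (adjusted p = 0.195), and both lost their call.

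Levels were set side by side across the separately normalized tables as a description, with no test. With vehicle, all 10 genes were at least 2-fold higher in irradiated than in non-irradiated D7 organoids without overlap of the libraries, as were 8.03% of 11235 genes. The ratio of means was largest for Fabp2 (11.9-fold, 564 ± 30.1 against 47.5 ± 0.642 FPKM, SD, n = 3 each) and Apoa4 (9.74-fold, 1560.3 ± 78.5 against 160.1 ± 3.77). It was 5.46-fold for Fabp1, 4.50-fold for Apoc3, 4.24-fold for Apoa1 and 4.15-fold for Apoc2. Dgat2 (2.89-fold), Apob (2.49-fold), Dgat1 (2.28-fold) and Mttp (2.26-fold) had the smallest ratios. In the same libraries the summed absorptive markers without lipid genes were 6282 to 6489 against 2605 to 2705 FPKM, and their part in these levels was not tested.

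The levels at D11 were lower again. With vehicle, all 10 genes were at least 2-fold lower at D11 than at D7 in irradiated organoids, without overlap, as were 3.28% of 11264 genes, from 2.11-fold for Apob to 9.76-fold for Apoa4. In the TGFB1 libraries, all 10 were at least 2-fold higher in irradiated than in non-irradiated D7 organoids (9.73% of 11403 genes), by 39.5-fold for Fabp2, 19.2-fold for Apoa1, 16.1-fold for Apoa4 and 14.4-fold for Fabp1, and by 4.26-fold for Dgat1 at the least. All 10 were also at least 2-fold lower at D11 than at D7 with TGFB1 (8.52% of 11381 genes), by 3.46-fold for Dgat1 to 20.5-fold for Apoa4. The summed FPKM of the 10 genes was 1946 to 2098 in non-irradiated vehicle libraries, 9616 to 10358 in D7 irradiated vehicle libraries, 16334 to 17090.1 in D7 irradiated TGFB1 libraries, and 1648 to 3506 and 1516 to 1699.99 at D11.

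**Figure D3:**
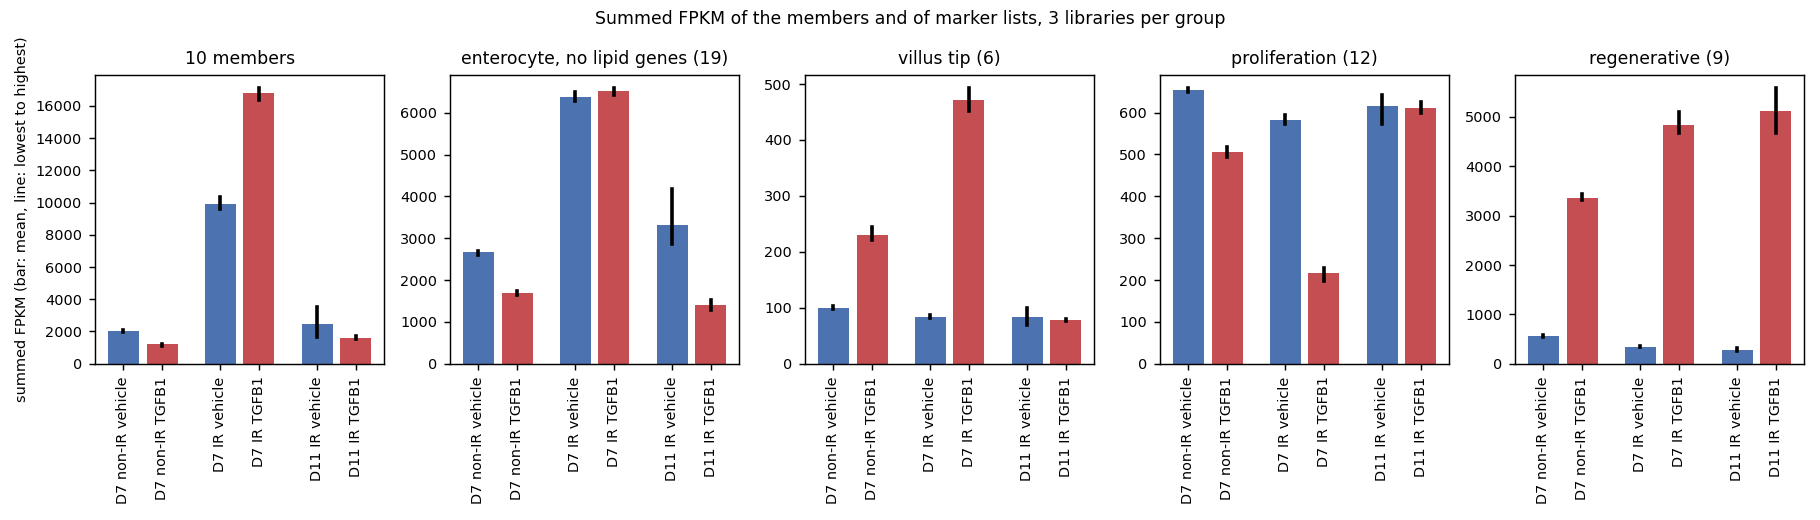
Summed FPKM of the 10 genes and of marker lists in the 6 groups (bar, mean of 3 libraries; line, lowest to highest library; axes from 0). The sum of the 10 genes was highest in the D7 irradiated TGFB1 libraries (16334 to 17090.1), where the sum of the absorptive markers without lipid genes (6417 to 6587) was close to that with vehicle (6282 to 6489).

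The order of the genes by FPKM also changed. In non-irradiated vehicle libraries it ran Fabp1, Apoa1, Mttp, Apoa4, Apoc3, Dgat1, Apoc2, Fabp2, Apob and Dgat2, with Apoc3 and Dgat1 overlapping. With TGFB1 it ran Apoa1, Fabp1, Apoa4, Apob, Mttp, Dgat2, Dgat1, Apoc3, Apoc2 and Fabp2, with overlaps between Apob and Mttp and between Dgat1, Apoc3 and Apoc2 as neighbours. In D7 irradiated vehicle libraries Fabp1, Apoa1 and Apoa4 led without overlap, then came Fabp2 and Apoc3, which overlapped, Mttp, Apoc2 and Dgat1, and last Apob and Dgat2, which overlapped. With TGFB1, Apoa1 (6482 ± 190.4 FPKM) stood above Fabp1 (3987 ± 149.8) and Apoa4 (3509 ± 39.7). Apoc3, Apoc2, Fabp2 and Mttp followed as overlapping neighbours, from 547 ± 56.8 to 467 ± 6.40, and Apob (359 ± 17.3), Dgat2 (249.7 ± 17.0) and Dgat1 (220.4 ± 3.20) were last. At D11 with vehicle most neighbours overlapped, and with TGFB1 Apoa1, Fabp1 and Apoa4 led again without overlap.

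Other genes of the pathway were read from 4 lists. Of all genes tested, 33.3% were called higher and 34.9% lower in D7 non-irradiated organoids. The shares were 35.8 and 39.7% in D7 irradiated and 32.3 and 31.6% in D11 organoids. Of 10 genes of fatty acid and sterol uptake, 7 or 8 were above the minimum in each comparison, and 1, 2 and 1 rose and 5, 3 and 5 fell in D7 non-irradiated, D7 irradiated and D11 organoids. Slc27a2, a very long chain acyl-CoA synthetase, fell in all 3, from 32.7 to 7.18, from 45.7 to 24.8 and from 59.7 to 6.22 FPKM on average (log2 differences -2.04, -0.86 and -3.07). Abcg5, one subunit of the sterol exporter, fell from 39.5 to 11.4 FPKM without irradiation, and Npc1l1, the cholesterol uptake receptor, fell from 92.4 to 81.5 in D7 irradiated organoids and from 79.5 to 15.4 at D11. Slc27a4, the main fatty acid transport protein of the enterocyte, rose from 58.8 to 82.8 FPKM at D7 with irradiation and from 17.3 to 24.6 at D11. Its value without irradiation was 18.4 against 17.6 (adjusted p = 0.251). Cd36, a fatty acid receptor, rose from 2.64 to 3.52 FPKM at D7 with irradiation. The median log2 difference of the list was -1.44, -0.03 and -1.14, against -0.02, -0.03 and 0.01 for all genes.

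Of 16 tested genes of re-esterification and lipid droplets, 9, 11 and 2 rose and 6, 3 and 9 fell, in the same order. Plin2, a coat protein of lipid droplets, rose from 45.4 to 107 FPKM without irradiation and from 55.4 to 153 with it at D7, and fell from 60.3 to 48.5 at D11. Acsl3, an acyl-CoA synthetase of nascent droplets, rose from 66.4 to 134 FPKM without irradiation and from 33.9 to 47.2 at D11. Cidec, a droplet fusion protein, rose from 15.1 to 39.1 FPKM in D7 irradiated organoids and fell from 8.99 to 3.61 at D11. Mogat2, the monoacylglycerol acyltransferase upstream of Dgat1 and Dgat2, fell from 52.5 to 31.5 FPKM without irradiation, rose from 160.2 to 183 in D7 irradiated organoids and fell from 62.0 to 30.6 at D11. Cideb, a droplet protein linked to lipoprotein lipidation, fell from 122 to 38.1 FPKM at D11, and Abhd5, the co-activator of the lipase Pnpla2, rose from 2.69 to 9.46. Soat2, which makes cholesteryl esters, fell from 16.6 to 7.26 FPKM without irradiation. In D7 irradiated organoids Acsl5 fell from 192 to 162 FPKM and Acat2 from 59.4 to 36.8. Acat2 is an acetyl-CoA acetyltransferase that is in the list although it does not esterify lipids. The median log2 difference of the list was 0.17, 0.46 and -0.25.

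Of 14 genes of chylomicron assembly and transport, 10 or 11 were tested, of which 2, 3 and 3 rose and 6, 3 and 5 fell. Apobec1, the deaminase that edits Apob RNA, rose in all 3 as Apob did, from 3.59 to 9.47, from 14.1 to 33.9 and from 3.34 to 7.75 FPKM (log2 differences 1.19, 1.21 and 1.01). Tm6sf2, a protein of lipoprotein lipidation, fell from 93.2 to 32.1 FPKM without irradiation and from 96.3 to 38.7 at D11, as Mttp did, and had 209 against 199 FPKM (adjusted p = 0.0593) in D7 irradiated organoids. Pla2g12b fell from 28.6 to 9.38 FPKM and Sec23b, a COPII coat protein, rose from 31.3 to 46.1 at D11. Mia2, of the export of large cargo from the endoplasmic reticulum, rose from 10.9 to 16.2 FPKM without irradiation and from 17.3 to 33.9 with it at D7. Apoa2 fell from 2.42 to 0.834 FPKM without irradiation, and A1cf, the cofactor of Apobec1, fell from 21.7 to 16.9 and P4hb, the small subunit of the transfer protein, from 889 to 708 in D7 irradiated organoids. The median log2 difference of the list was -0.14, -0.08 and -0.30.

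Of the 16 regulators, 15 or 16 were tested, of which 4, 3 and 0 rose and 11, 9 and 10 fell. Creb3l3, a membrane-bound transcription factor of lipid metabolism, rose from 17.0 to 36.5 FPKM without irradiation and from 118 to 282 with it at D7, and had 29.8 against 17.5 (adjusted p = 0.127) at D11. Hnf4g fell from 36.2 to 14.6 FPKM without irradiation, and Ppara, a fatty acid receptor, fell from 14.9 to 8.10 in D7 irradiated organoids and from 6.80 to 3.15 at D11. Prdm1, a repressor of the suckling-to-adult switch, rose from 0.700 to 3.61 FPKM without irradiation and from 0.645 to 2.34 with it at D7. Ppargc1a fell in all 3 comparisons (log2 differences -1.63, -0.48 and -1.54), and Smad4, a signal transducer of TGFB1, passed the test in none (adjusted p = 0.805, 0.289 and 0.796). The median log2 difference of the list was -0.51, -0.19 and -0.64.

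The genes whose levels were most like those of 4 members over the 18 libraries were found by Pearson's r of log2(FPKM + 1) among 7035 genes, as a description. The libraries share conditions, so r follows mainly the differences between the 6 groups. For Fabp1 they were Dpep1, Snx9 and Hdhd3 (0.992 each). For Apoa4 they were Cyp4f16 (0.985), Eps8l2 (0.985) and Sec14l2 (0.981), and for Apob Lipa (0.984), Lypd8 (0.979) and Misp (0.977). For Dgat1 they were Dpep1 (0.99), Tm6sf2 (0.986) and Ggt1 (0.985).

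The single-cell libraries held 2218 to 4283 kept organoid cells with a median of 6709 to 10441 UMIs (unique molecule counts), and 699 to 1846 crypt cells with a median of 11968.5 to 14399. No pair of libraries shared more than 1 barcode. With 1 library per time there is no test, and intervals cover counting error only. Values are CPM, the usual scaling of a gene's summed UMIs to the library's total, of all kept cells. In the irradiated organoids given TGFB1, Apoa1 and Apob rose above 2-fold, and Apoa4, Apoc2 and Dgat2 rose less. Fabp1 and Fabp2 were lower at 24 h.

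Apoa1 was at 805 CPM (Poisson interval 794 to 815) with vehicle and at 1813, 2452 and 2468 after 6, 15 and 24 h, so it was 2.25-fold higher by 6 h and 3.07-fold at 24 h. Apob was at 385 CPM with vehicle and at 526, 925 and 784, with its highest value at 15 h (2.40-fold). Apoa4 was at 849.5 CPM with vehicle and at 1296, 1581 and 1679, which is 1.98-fold higher at 24 h. Of the 10 genes, 1 (Apoa1) was at least 2-fold higher at 6 h and 2 (Apoa1 and Apob) were at 15 and at 24 h, against 0.929%, 2.03% and 4.14% of all genes above 10 CPM on average. Dgat2 was at 133 CPM with vehicle and at 165, 165 and 215, and Apoc2 at 178, 211, 326 and 270.2.

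Fabp1 was at 8377 CPM (interval 8343 to 8411) with vehicle, at 9067 and 8917 after 6 and 15 h and at 5856 (5829 to 5884) after 24 h, 1.43-fold lower. Fabp2 was at 1894, 2037, 1717 and 1259.99 CPM, 1.50-fold lower at 24 h. The remaining genes stayed close to their vehicle level. Mttp was at 694, 663, 748 and 752 CPM, Dgat1 at 354, 329, 362 and 367, and Apoc3 at 249.6, 265, 230.2 and 213. Dgat1 and Mttp were not at least 2-fold apart at any time, nor was Apoc3.

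**Figure D4:**
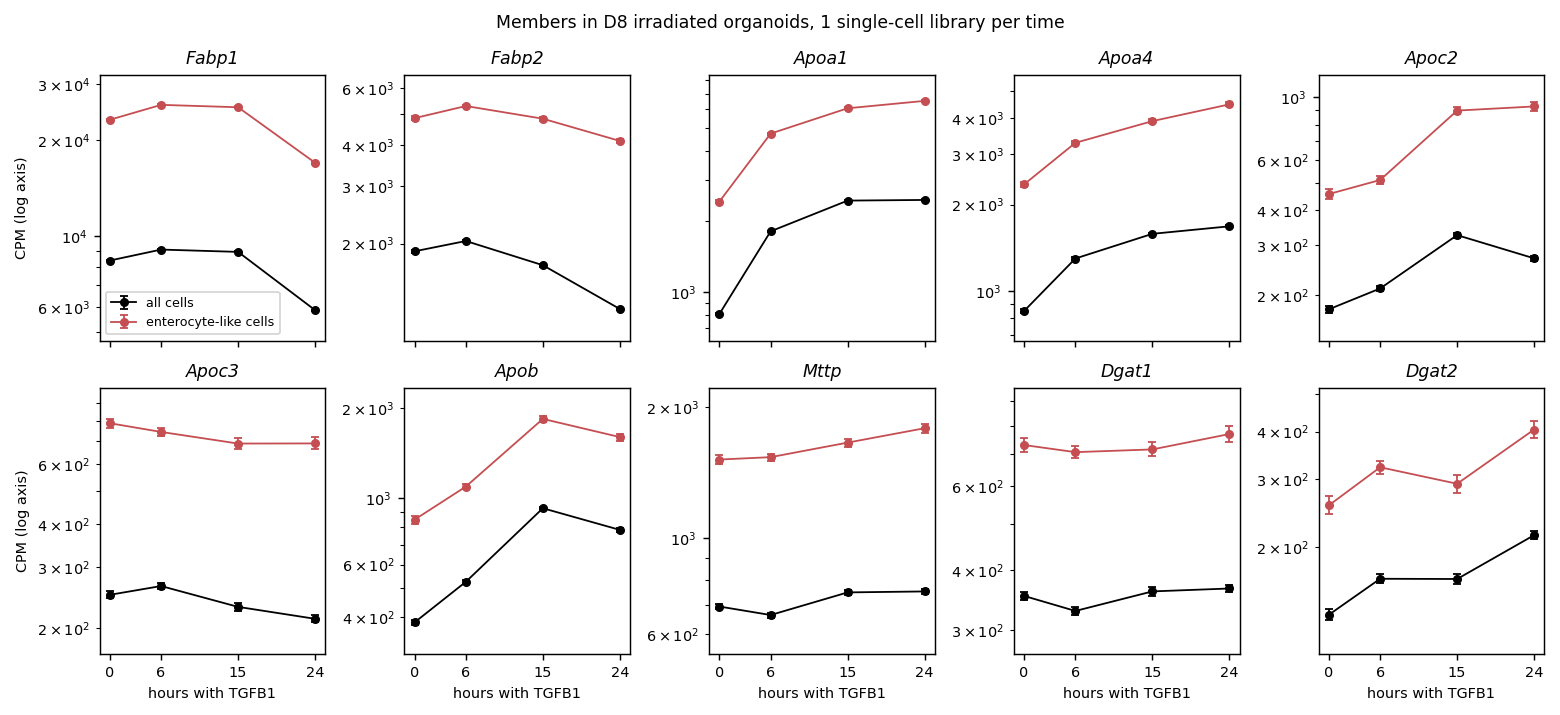
CPM of each gene (log axis) against hours with TGFB1 in D8 irradiated organoids, 1 single-cell library per time, in all kept cells and in the cluster called enterocyte-like; bars are 95% Poisson intervals and mostly smaller than the points. Apoa1 climbs from 805 to 2468 CPM in all cells and from 2425 to 6524 in the enterocyte-like cluster, while Fabp1 is lowest at 24 h in both.

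The share of cells with at least 1 UMI was taken with each cell thinned to 2000 UMIs. For Apoa1 it was 43.3, 57.7, 65.3 and 66.9% at 0, 6, 15 and 24 h (64.4, 77.3, 86.0 and 90.8% unthinned), and for Apob 44.9, 52.7, 64.9 and 61.9%. For Fabp2 it was 77.2, 72.7, 63.2 and 58.0%, and for Fabp1 76.3, 77.1, 74.3 and 74.1%. Free RNA can give UMIs to cells that do not express a gene. In the enteroendocrine-like cluster (286 cells, median 5599.5 UMIs), the thinned share at 0, 6, 15 and 24 h was 25.8, 47.1, 43.8 and 67.6% for Apoa1, 48.5, 52.9, 64.1 and 78.9% for Fabp1, 62.1, 56.5, 32.8 and 46.5% for Fabp2 and 21.2, 27.1, 37.5 and 25.4% for Apob. The whole-library shares of Apoa1 and Fabp1 at 24 h were thus at or under that level of their own library, and no difference in expression was read from them. The whole-library shares of Apob were above the enteroendocrine-like level at each time. In the enterocyte-like cluster (2477 cells, median 7509 UMIs) the shares over all 4 libraries were 96.5% for Apoa1, 100.0% for Fabp1, 99.6% for Fabp2 and 87.4% for Apob.

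Cells were clustered without the 10 genes and the pathway lists, and clusters were named from marker lists, so the names are rebuilt ones. No doublet caller was run. Of 16 organoid clusters, 1 was named enterocyte-like (2477 of 12323 cells, and 12.0 to 30.2% of cells in 3 other clusterings), and 1 villus tip-like (417 cells). All 10 genes were at least 2-fold higher in the enterocyte-like cells than in all other cells, as were 7.49% of 8186 genes. CPM in the enterocyte-like and villus tip-like cells were 23527 and 6454 for Fabp1, 4876 and 2470.3 for Fabp2, and 724 and 523 for Dgat1. For Apoa4 they were 3398 and 6001, for Apoc2 657 and 1390.2, and for Dgat2 313 and 845, so these 3 genes were higher in the villus tip-like cells, as they were within each of the 4 libraries. The other genes lay closer over the 4 libraries together, at 4766 and 5099 for Apoa1, 1288 and 1691 for Apob, 1601 and 1526 for Mttp and 732 and 665 for Apoc3, but not in each library. Apob was at 848 and 1478 CPM at 0 h and at 1599 and 1465 at 24 h, and Apoc3 at 787 and 497 at 0 h and at 687.5 and 763 at 24 h. In the regenerative-like cluster (337 cells), Apob was at 1034 CPM, Fabp1 at 686, Apoa1 at 336 and Apoc3 at 24.2. Within libraries, Apob in regenerative-like and enterocyte-like cells was at 1133 and 1093 CPM at 6 h (31 regenerative-like cells), at 1281 and 1838 at 15 h (111 cells) and at 943 and 1599 at 24 h (182 cells).

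The time course was also present within the enterocyte-like cluster, which held 606, 1075, 570 and 226 cells at 0, 6, 15 and 24 h. Apoa1 was at 2425, 4733, 6068 and 6524 CPM, Apoa4 at 2352, 3286, 3913 and 4477, and Apob at 848, 1093, 1838 and 1599. Fabp1 was at 23125, 25756, 25313 and 16961 CPM there, and Fabp2 at 4848, 5282, 4829 and 4127. Apoc2 was at 456, 511, 898 and 929, and Dgat2 at 257, 323, 292 and 405. Thus the rises of Apoa1, Apoa4 and Apob and the low Fabp1 value at 24 h were seen among cells of 1 cluster as well as in the whole library. Mttp (1515, 1534, 1658 and 1789.5 CPM), Dgat1 (729, 705, 714 and 769) and Apoc3 (787, 742, 687 and 687.5) changed little there. In the villus tip-like cluster, Apoa1 was at 2664, 4881, 6705 and 6558 CPM and Fabp1 at 6525, 8402, 5819 and 4603. In the unnamed clusters together, Fabp1 was at 7071 CPM at 0 h and at 9160 at 24 h. Fabp2 was at 1473 and 1726 there, Mttp at 602 and 1173, Dgat1 at 322 and 572 and Apoa1 at 453 and 3659. Cluster 2, unnamed, held 26.1% of cells at 0 h and 0.0902% at 24 h. Unnamed cluster 1 held 1.06 and 27.2%. A change in level and a change of cells cannot be told apart there.

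The 24 h library also held 1 unnamed cluster led by small RNAs such as 7SK and Rmrp, with 474 cells over the 4 libraries, at 5947 CPM for Apoa1, 4030.5 for Apoa4 and 3097 for Fabp1. Leaving out this cluster and 3 led by pseudogenes, by a rule set after seeing the data, removed 4.88, 8.52, 8.55 and 17.7% of cells at 0, 6, 15 and 24 h. At 24 h Apoa1 was then at 2142 CPM (2.81-fold above vehicle), Apob at 777 (2.05-fold), Apoa4 at 1463 (1.79-fold), Dgat2 at 199 (1.52-fold) and Fabp1 at 6124 (1.36-fold lower). Over the 4 libraries the absorptive markers without lipid genes summed to 12790.1, 11476, 10620.2 and 10218 CPM and the villus tip markers to 679, 883, 1309.99 and 1219 CPM. Their part in the time course was not tested.

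**Figure D5:**
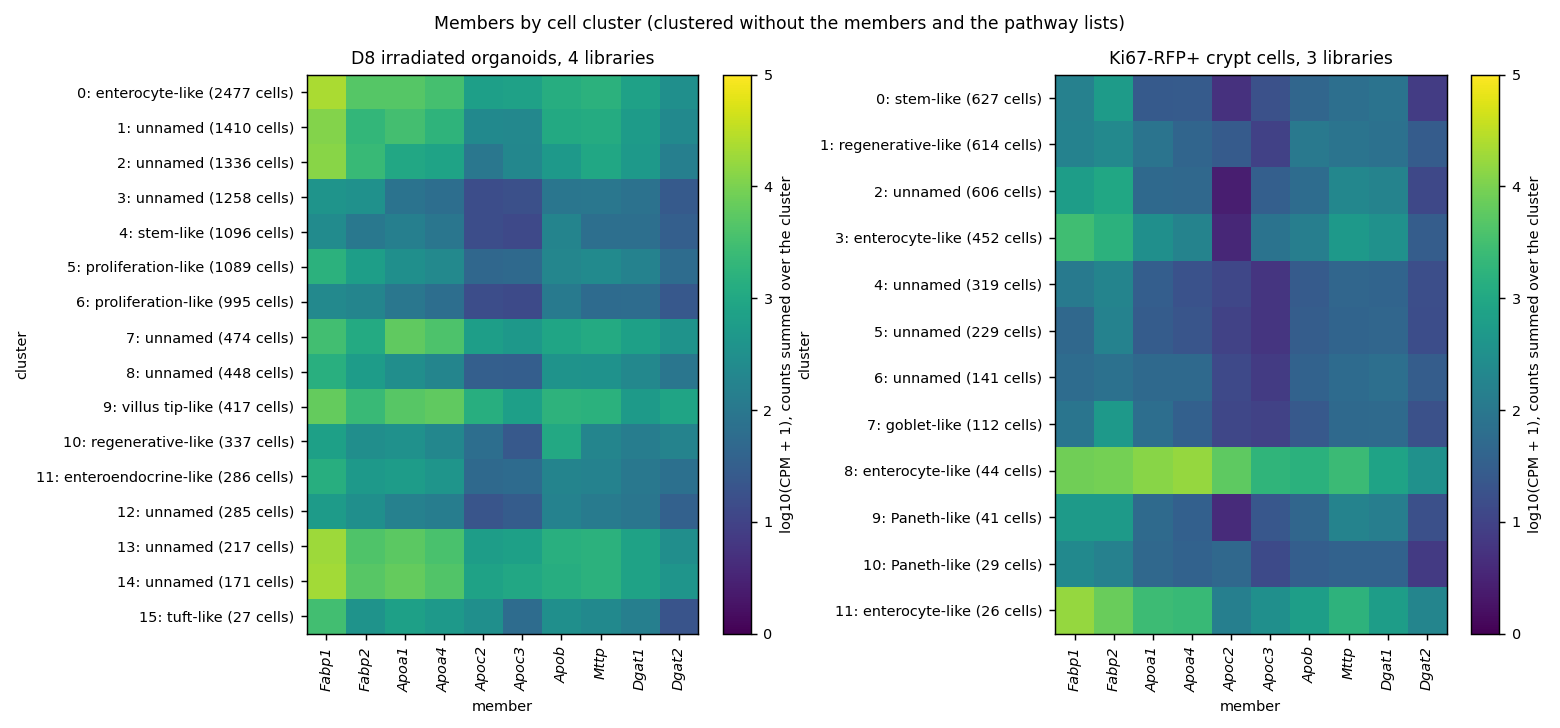
Level of each gene, as log10(CPM + 1) of counts summed over the cells of each cluster, in the 16 organoid clusters and the 12 largest crypt clusters. The 10 genes are high together in the enterocyte-like and villus tip-like organoid clusters, in the unnamed organoid clusters 7, 13 and 14 led by small RNAs or pseudogenes, and in crypt clusters 8 and 11, and Apob is at 1034 CPM in the regenerative-like organoid cluster, against 1288 in the enterocyte-like one.

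In sorted Ki67-RFP crypt cells, Fabp1, Fabp2 and Dgat1 were at least 2-fold lower in both irradiated libraries than in the non-irradiated one, and Apoc2 was at least 2-fold higher in both. That is 3 genes lower, where 4.23% of 8620 genes were, and 1 higher, where 8.78% were. With 1 control library there is no test. The irradiated crypts passed a 100-μm strainer and the control crypts a 70-μm one, so strainer and irradiation cannot be told apart. Fabp1 was at 1327 CPM (interval 1313 to 1341) in the control and at 75.9 (71.4 to 80.7) and 363 (352 to 374) in the irradiated libraries, 17.5-fold and 3.66-fold lower. Fabp2 was at 1100.4 CPM in the control and at 170.2 and 459, 6.46-fold and 2.40-fold lower. Dgat1 was at 186 CPM in the control and at 55.6 and 76.8.

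The 2 irradiated libraries disagreed for several genes. Apoa4 was at 128 CPM in the control, at 105 in irradiated replicate 1 and at 428 in replicate 2, and Apoa1 was at 164, 114 and 368. Apoc3 was at 45.6, 13.0 and 53.6 CPM and Apob at 81.8, 53.2 and 118. Mttp was lower in both, at 252 against 65.2 and 129, and reached 2-fold only in replicate 1. Dgat2 was at 17.5, 22.6 and 28.8 CPM. Apoc2 was at 10.1 CPM in the control and at 40.3 and 159 in the irradiated libraries. Its overlapping gene Gm44805 was at 6.42, 11.7 and 17.6, and 18.6 to 71.2% of the Apoc2 UMIs in the 7 libraries came as fractional counts, against 0% for the other 9 genes. The shares of cells with a UMI, thinned to 2000 UMIs, were 51.7, 6.95 and 15.3% for Fabp1, 75.4, 24.9 and 29.2% for Fabp2, 15.6, 10.7 and 13.4% for Apoa1 and 12.0, 4.45 and 12.2% for Apoa4. In the control's 64 goblet-like cells (median 9716 UMIs) the shares were 28.1% for Fabp1, 79.7% for Fabp2 and 4.69% for Apoa1. In its 63 Paneth-like cells (median 5347 UMIs) they were 54.0, 55.6 and 12.7%. The control's Fabp2 share thus lay under the goblet-like level and above the Paneth-like one. Its Fabp1 share lay above the goblet-like level and inside the interval of the Paneth-like one (40.9 to 66.6%). In the 31 goblet-like cells of irradiated replicate 1 (median 17658 UMIs) the shares were 6.45, 22.6 and 6.45%. These levels of Fabp1 and Fabp2 lay inside the intervals of that library's shares (5.21 to 9.07% and 21.8 to 28.2%). Replicate 2 had 17 such cells and no value is given. The Fabp1 and Fabp2 shares of the control and of replicate 1 are therefore not read as expression.

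Much of this RNA lay in few cells. Crypt cluster 8, the 44 cells with the most enterocyte-like marker profile (3 of the control, 9 of irradiated replicate 1 and 32 of replicate 2), held 16358 CPM of Apoa4, 12734 of Apoa1, 8965 of Fabp2, 8180.2 of Fabp1 and 5695 of Apoc2. It carried 82.3% and 87.6% of all Apoa4 UMIs of the irradiated replicates 1 and 2. The shares were 57.6% and 81.8% of the Apoa1 UMIs and 21.8% and 41.5% of the Fabp1 UMIs. Of the Apoc2 UMIs it carried 65.3% and 86.4% there, and its 3 control cells carried 49.7% of those of the control. The main enterocyte-like cluster of the control was cluster 3 (452 cells, none from irradiated mice). Its median marker fold was 2.16, just above the 2 needed for the name, against 27.6 in cluster 8 and 9.33 in cluster 11. Cluster 3 had 2877 CPM of Fabp1 and 1643 of Fabp2. It had little of the apolipoproteins, at 309 of Apoa1, 174 of Apoa4 and 2.65 of Apoc2. The enterocyte-like clusters of control and irradiated cells are thus different ones, and their levels were not compared between the groups.

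Values without cluster 8, left out after seeing the data, describe the remaining cells only. The removal takes 9 and 32 irradiated and 3 control cells and leaves the control's 452 and 25 enterocyte-like cells of clusters 3 and 11, so it lowers the irradiated libraries by construction. With it, 7 of the 10 genes were at least 2-fold lower in both irradiated libraries (4.63% of 8587 genes), and nothing is read from that count. Fabp1 was then at 1288 CPM in the control and at 59.7 and 217 in the irradiated libraries, Apoa1 at 154 against 48.6 and 68.4, and Apoa4 at 110.3 against 18.7 and 54.4. Apoc3 was at 43.6 against 5.05 and 7.79. Apob was at 79.3 against 45.9 and 85.1, Dgat2 at 17.4 against 20.7 and 21.5, and Apoc2 at 5.11 against 14.1 and 22.1. In the regenerative-like crypt cluster, which held 265 and 349 cells of the irradiated replicates and 0 of the 1846 control cells (upper 95% exact binomial limit 0.1996%), Apob was at 93.8 and 115 CPM and Fabp1 at 101 and 207. The absorptive markers without lipid genes summed to 2040.1 CPM in the control and to 735 and 1477 in the irradiated libraries, the immune markers to 9.53 and to 30.4 and 32.8, and their part in these levels was not tested.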

How the data were processed

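FPKM were deposited by the authors as 3 tables of 6 organoid libraries. The submitters' processing notes name TopHat2 2.1.0, Cuffnorm and Cuffdiff 2.2.1, Salmon 1.4, STAR 2.7.10a with STARsolo, and the builds mm9, GRCm39 and mm39, with no role for each. Single-cell matrices were deposited with estimated counts that can be fractional, and they were summed without rounding since no count model was run. The deposited accessibility peaks, whose values are scores, were not used, because their coordinates could not be joined to the GRCm38 promoter table.

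Each TGFB1 comparison was fitted alone with limma 3.58.1 (R 4.3.3, trend and robust options, two-sided) on log2(FPKM + 1), over genes whose mean reached 1 FPKM, with Benjamini-Hochberg adjustment over all genes fitted and a threshold of 0.05. Fold changes on this scale understate those of low genes. Interactions were fitted over 12 libraries. Replicate numbers were not used to pair the samples in the main fits. Correlations of same-numbered libraries lay between -0.0856 and 0.213. Those with the best other-numbered library lay between -0.0879 and 0.204. Such weak values do not settle whether the samples were paired. The fitting script was tested on simulated data.

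The cell filter required 500 UMIs and 250 genes or more, and no more than 20% of UMIs from mitochondrial genes. Clusters were made with scanpy 1.11.5 and leidenalg 0.10.2 from 2000 variable genes, 30 components and 15 neighbours at resolution 0.6. Intervals are 95% exact Poisson for CPM and exact binomial (Clopper-Pearson) for shares. The members and lists were chosen with earlier results of these data known. Pathway genes are named as the largest 2 rises and 2 falls called per list, and Slc27a4, Mogat2, Smad4, Tm6sf2, Creb3l3, Ppargc1a and Plin2 are also given where they fell outside that rule, chosen after their values were seen. One pathway gene that the rule names is not reported here. Alternatives were another pseudocount, filter, scaling, model, mitochondrial limit and clustering, and leaving out each library.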

Additional observations from a re-analysis of the deposited data

Results flagged for a closer look

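The TGFB1 effect of every one of the 10 genes differed between groups by the test of the difference itself, on the log2(FPKM + 1) scale (limma interaction over 12 libraries, adjusted p under the threshold in each case). Between irradiated and non-irradiated D7 organoids, the effect was higher in the irradiated ones by 1.40 for Fabp1, 1.65 for Fabp2, 2.18 for Apoa1, 0.73 for Apoa4, 1.60 for Apoc2, 1.43 for Apoc3, 0.85 for Apob, 1.40 for Mttp, 0.89 for Dgat1 and 0.59 for Dgat2. Between D11 and D7 irradiated organoids the difference was -1.09 for Fabp1, -0.69 for Fabp2, -1.57 for Apoa1, -1.01 for Apoa4, -1.86 for Apoc2, -1.83 for Apoc3, -0.98 for Apob, -0.79 for Mttp, -0.60 for Dgat1 and -1.28 for Dgat2. The adjusted p of the day difference ran from 5.14e-07 (Dgat2) to 0.0134 (Apoa4). Both sets use the same D7 irradiated libraries, and in both sets irradiation or day cannot be told apart from the table.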

How the results depend on the processing

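Of 1656 values recomputed under alternatives, 1562 kept their direction and their side of the threshold or stayed within the spread, 71 moved, 9 turned direction, 10 gained a call and 4 lost one. With an added 2-fold minimum, the genes called were 956 (D7 non-irradiated, 0 members higher), 1484 (D7 irradiated, 0 members lower) and 1574 (D11, 0 members higher and 1 lower). The fit of all 18 libraries left 1 member lower in D7 irradiated organoids. After quantile normalization the D7 irradiated difference was -0.51 for Fabp1, -0.0438 for Apoc3 and -0.0346 for Mttp, and the D11 difference of Apoa1 was 0.21. At D11, leaving out 1 replicate at a time gave 1 to 2 members higher. The differences then ran from -0.409 to 0.31 for Apoa1, from -0.0813 to 0.482 for Apoa4 and from -0.174 to 0.0238 for Dgat2, the lowest without vehicle replicate 1 and the highest without vehicle replicate 3. With at most 10% mitochondrial UMIs, the log2 ratio of Dgat1 was -0.00885 at 15 h and -0.0032 at 24 h. In crypt cells, leaving out an irradiated replicate gave 3 to 5 members lower and 1 to 3 higher. Without the most enterocyte-like cluster, whose cells are mostly irradiated ones so that the removal itself lowers those libraries, 7 members were lower in both irradiated libraries, and in irradiated replicate 2 alone 7 were lower and 1 higher. With the replicate block the adjusted p of Fabp1 in D7 irradiated organoids was 0.0438 (difference 0.10), and no other member's call changed. Without a filter, without trend and robust options, and in the fit of all 18 libraries, Apoc2 at D11 was called (adjusted p = 0.0337, 0.0198 and 0.00206). The causes were not tested. Peaks at the gene starts were planned and not run, since the builds differ. Depth of the FPKM is unknown, and 1 library per time allows no test.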
